A study of Nasonia vitripennis with 9 samples.

Results

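Scr and pros, a pair of homeodomain transcription factor genes, were followed in pupae of the parasitoid wasp Nasonia vitripennis after injection of a double-stranded RNA. They are 2 of the 15418 gene rows used, taken by their symbols and chosen by their CPM in all 9 libraries, over the groups and between pools. Those levels are therefore given as a description, with no test. Every library was made from a pool of 5 whole males of the laboratory strain AsymCX, which had been cured of the bacterium Wolbachia. In the dsGFP group, second instar larvae, about 3 days after egg laying, received double-stranded RNA against green fluorescent protein, a sequence foreign to the wasp, at a concentration of 4 µg/µl mixed with a red food dye. The water group received water and dye, and the uninjected group received nothing. Injected pools were frozen 5 to 6 days after injection. The labels call the animals white pupae in one field and whole larvae in another, and give no separate age for the uninjected pools. Each group had 3 pools, which the labels do not trace to separate hosts or cultures, so the spread between them may be partly technical. The study asked whether injection of this RNA, a common control in RNA interference, alters gene expression by itself.

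Scr (Sex combs reduced) is a Hox gene. In Drosophila it sets the identity of the labial and prothoracic segments, and it is kept on in the tissues of those segments after the embryo. The gene pros (prospero) encodes an atypical homeodomain protein that Drosophila neuroblasts pass to the daughter cell that will divide into neurons or glia, where it shuts down self-renewal genes and turns on differentiation genes. It is also used in sense organs, in photoreceptor fate and in glia. The pupal period is a time when segments are remodelled into adult structures and the nervous system is enlarged.

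Gene totals were 33885222 to 35982723 counts in the dsGFP libraries, 36177528 to 37100106 in the water libraries and 38792239 to 46080606 in the uninjected libraries, with the uninjected libraries the deepest. Levels are CPM, a gene's read pairs as a share of the library's total, on library sizes scaled by TMM, a method that corrects for differences in composition between libraries. CPM is not corrected for gene length, so the levels of Scr and pros are not compared with each other. Among libraries, uninjected 3 lay apart on the first principal component of the 500 most variable genes, at 50.7 where the others were at or below 27.9. Uninjected 2 lay apart on the second, at 48.0 where the others were at or below 6.24.

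Scr had about the same mean level in all 3 groups. The dsGFP pools 1, 2 and 3 had 60.0, 80.1 and 82.7 CPM, the water pools 75.9, 89.2 and 62.3 CPM, and the uninjected pools 77.8, 79.1 and 62.3 CPM. The ranges of the 3 groups overlapped almost fully, and each group held 1 pool near 60 CPM. Means were 74.3 ± 12.4 CPM with dsGFP, 75.8 ± 13.5 CPM with water and 73.1 ± 9.35 CPM uninjected (SD, n = 3 each). The highest of these means was 1.04 times the lowest, while the highest pool of a group was 1.27 to 1.43 times the lowest pool of the same group. Each Scr value rested on 2054 to 3620 counts, which gives a counting error of 1.66 to 2.21% of the value if read pairs are independent.

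The second gene, pros, showed the same arrangement. Its dsGFP pools 1, 2 and 3 had 90.3, 125 and 113 CPM, its water pools 126, 117 and 98.4 CPM, and its uninjected pools 113, 131 and 87.9 CPM. Again the groups overlapped, and the widest spread was inside the uninjected group, which held both the highest and the lowest of the 9 values. Means were 110 ± 17.8 CPM with dsGFP, 114 ± 14.0 CPM with water and 111 ± 21.8 CPM uninjected (SD, n = 3 each). The highest mean was 1.04 times the lowest, against 1.28 to 1.49 times between pools of a group. The counts behind pros were 3092 to 6008 per library, a counting error of 1.29 to 1.80%.

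**Figure D1:**
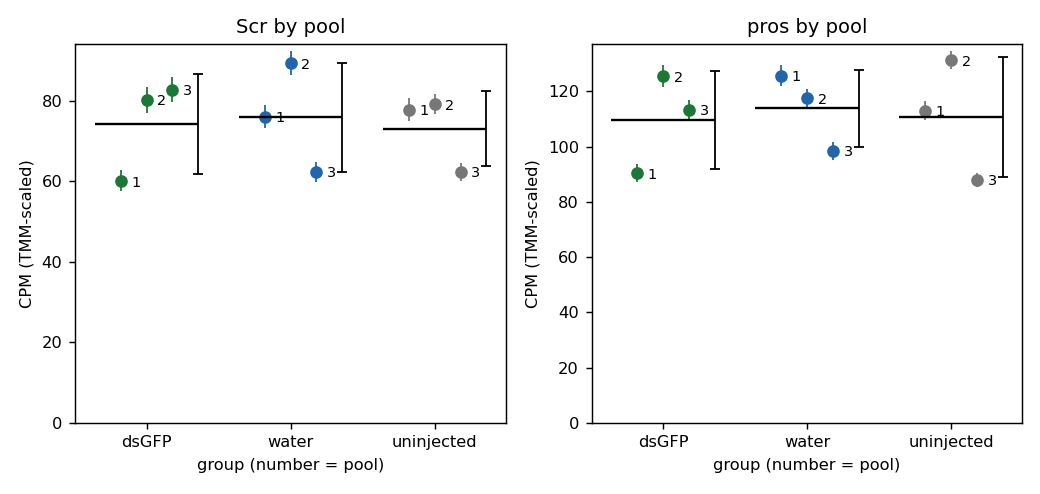
Levels of Scr (left) and pros (right) in CPM for each pool, numbered, in the dsGFP, water and uninjected groups; thin bars are 95% Poisson intervals of the count, and black lines and brackets are group means and SD (n = 3 pools). The group means lie within 1.04 times of each other for both genes, and in each group 1 pool lies below the other two: dsGFP 1, water 3 and uninjected 3.

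For both genes the means of neighbouring groups, in the order of their levels, differed by less than the SD of either group. From the fit of all 11665 tested genes, the log2 fold change of Scr was -0.030 (SE 0.16, 95% interval -0.39 to 0.33) for dsGFP against water. It was 0.054 (SE 0.16, -0.31 to 0.41) for water against uninjected and 0.024 (SE 0.16, -0.34 to 0.38) for dsGFP against uninjected. For pros the values were -0.054 (SE 0.17, 95% interval -0.42 to 0.31) for dsGFP against water, 0.040 (SE 0.17, -0.33 to 0.41) for water against uninjected and -0.013 (SE 0.17, -0.38 to 0.35) for dsGFP against uninjected. On the linear scale these intervals ran from 0.747-fold to 1.33-fold over both genes and all comparisons, so differences inside that span cannot be told from none with these pools. The comparisons share libraries and are not independent of each other.

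Neither gene was called in any comparison at an adjusted p under 0.05, and nothing is read from this because the genes were chosen with these values known. Over all tested genes, edgeR's quasi-likelihood test called 0.0% in dsGFP against water, 0.00857% in water against uninjected and 4.55% in dsGFP against uninjected. The 0.0% stands for 0 genes, where 710 had an unadjusted p under 0.05, DESeq2 called 6 genes and limma-voom called 0. A larger fold change in either direction than that of Scr was found for 84.6% of tested genes in dsGFP against water, 71.8% in water against uninjected and 92.6% in dsGFP against uninjected. For pros these shares were 73.1, 78.5 and 95.9%. The signs of these small fold changes were not stable: leaving out single libraries moved Scr between -0.16 and 0.11 and pros between -0.16 and 0.070 for dsGFP against water. With dsGFP 1, water 3 and uninjected 3 left out together, the dsGFP against uninjected values were 0.036 for Scr and -0.050 for pros. With uninjected 2 and 3 left out they were -0.088 for Scr and -0.063 for pros, in a fit where the remaining uninjected library is assumed to vary like the other groups.

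**Figure D2:**
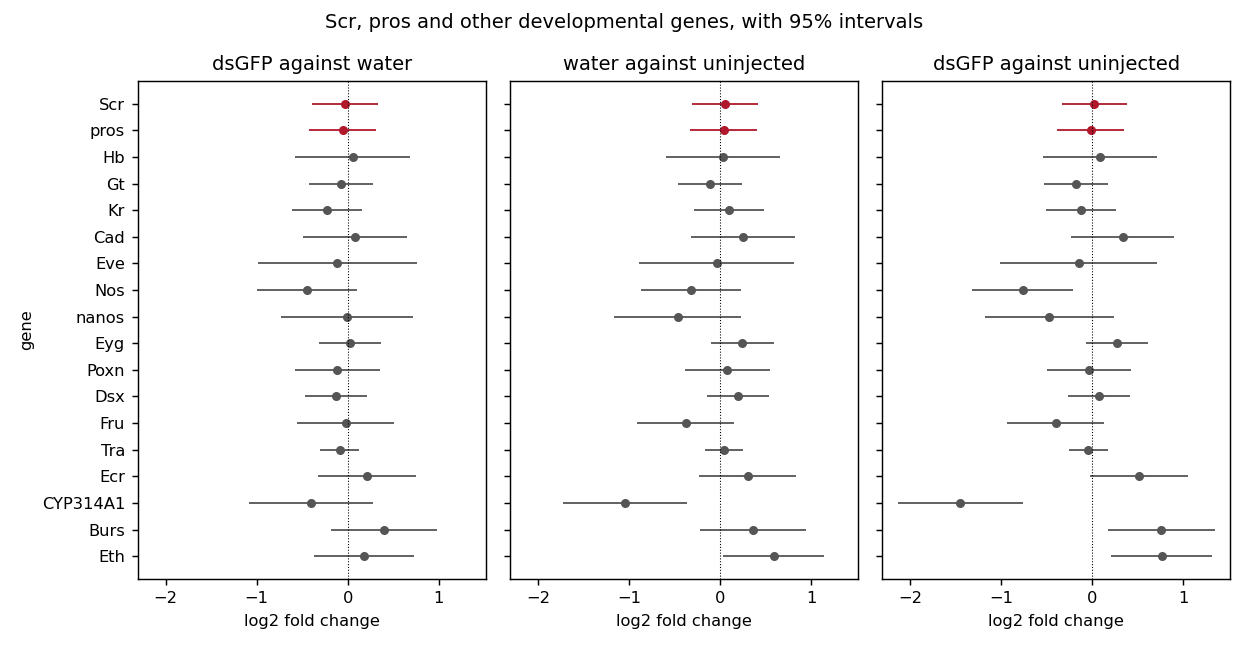
Fitted log2 fold changes (points) with 95% intervals (bars) for Scr and pros in red and for the 16 other developmental genes matched by name in grey, for dsGFP against water, water against uninjected and dsGFP against uninjected. Scr and pros lie between -0.054 and 0.054 in every panel, and CYP314A1 lies furthest from 0 in dsGFP against uninjected, at -1.45.

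Single pools of a group differed by more than the group means did, though means of 3 pools vary less than single pools. Within the dsGFP group both genes were lowest in pool 1, within the water group both were lowest in pool 3, and within the uninjected group both were lowest in pool 3. For Scr the highest of these 3 libraries had 62.3 CPM and the lowest of the other 6 had 75.9 CPM. For pros the corresponding values were 98.4 and 113 CPM, so in both genes these 3 libraries lay below each of the other 6 across treatments. The next pool was 1.34, 1.22 and 1.25 times the lowest for Scr in the dsGFP, water and uninjected groups, and 1.25, 1.19 and 1.29 times for pros.

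The order above the lowest pool was not shared by both genes. Scr was highest in dsGFP 3, water 2 and uninjected 2, while pros was highest in dsGFP 2, water 1 and uninjected 2. Uninjected 2 stood out for pros, at 131 CPM against 113 CPM in uninjected 1, but not for Scr, at 79.1 against 77.8 CPM.

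The same combination of lowest pools was common in the data. Of 11665 tested genes, 2393 (20.5%) had their lowest CPM in dsGFP 1, water 3 and uninjected 3, the most frequent of the 27 possible combinations, and 1391 (11.9%) had all 3 of these libraries below each of the other 6. The opposite arrangement, with these libraries highest in each group, was found for 2470 genes (21.2%). Scr and pros thus share their lowest pools with a large block of the transcriptome. The next most frequent combination, lowest in dsGFP 2, water 1 and uninjected 1, held 13.1% of genes.

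**Figure D3:**
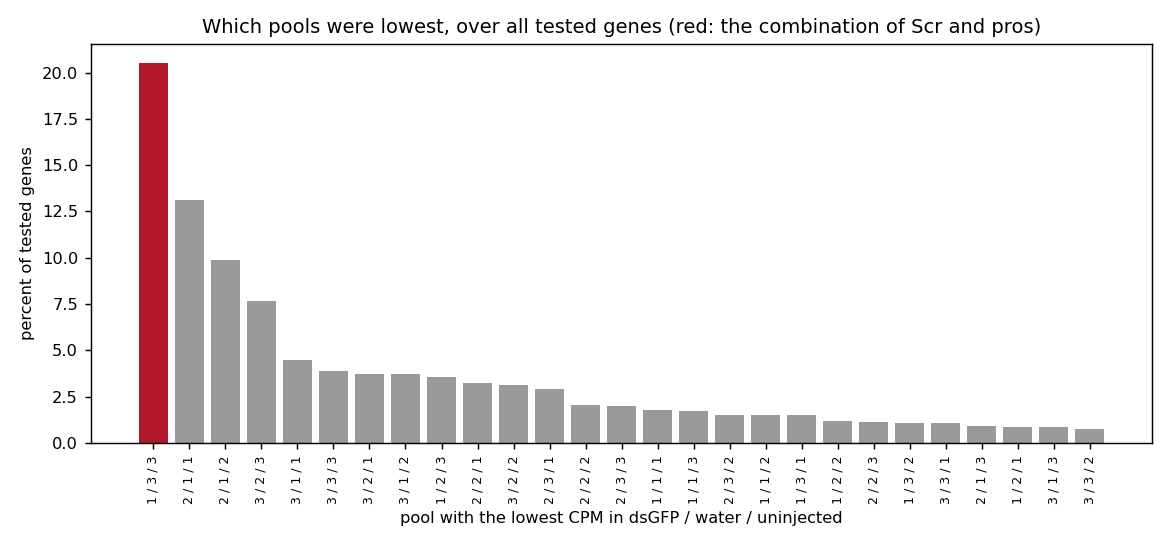
Percent of the 11665 tested genes (vertical axis) for each of the 27 combinations of the pool with the lowest CPM in the dsGFP, water and uninjected groups (horizontal axis, pool numbers in that order). The combination of Scr and pros, in red, is the most frequent, with 20.5% of genes.

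The spread between pools was above the median of genes with similar read numbers in most groups. The fitted variation was near the median of all tested genes, which is a different set. The coefficient of variation of Scr was 16.7% with dsGFP, 17.8% with water and 12.8% uninjected, against medians of 8.63, 8.31 and 12.4% over the 3620 genes within 2-fold of its mean CPM. That of pros was 16.3% with dsGFP, 12.3% with water and 19.7% uninjected, against medians of 9.00, 8.34 and 12.6% over 2999 such genes. Only for Scr in the uninjected group was the value close to the median. Over all groups the pooled SD on the log2 scale was 0.24 for each gene, and the median of all tested genes was 0.19. The biological coefficient of variation fitted by edgeR was 17.0% for Scr and 17.2% for pros, against a median of 17.1% over the tested genes. That median covers genes of all read numbers, and the fit draws each gene towards genes of similar level. It therefore does not show that either gene was ordinary for its level.

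Several library measures moved with the lowest pools of Scr and pros, and others did not. The TMM factor was highest in its group in dsGFP 1 (0.996), water 3 (1.07) and uninjected 3 (1.13), against 0.896 to 0.984, 0.950 to 1.01 and 0.981 to 0.993 in the other pools of those groups. Without TMM factors the steps from the lowest pool to the next narrowed to 1.20, 1.08 and 1.08 times for Scr and to 1.24, 1.13 and 1.11 times for pros. These 3 libraries were still below the other 6 for both genes, but for Scr only narrowly. For Scr uninjected 3 had 70.6 CPM and dsGFP 2 had 71.8 CPM, with counting errors of 1.83 and 2.03%, so that gap is within counting error. For pros the corresponding values were 106 CPM in water 3 and 111 CPM in uninjected 1. With size factors by relative log expression the steps were 1.35, 1.23 and 1.27 times for Scr and 1.26, 1.20 and 1.31 times for pros. The shares of read pairs that mapped to several places and that overlapped several genes were also highest in their groups in these libraries, at 0.844, 0.864 and 0.765% for several places and 2.43, 2.58 and 2.90% for several genes. So was the share that fell outside genes, at 8.29% in dsGFP 1, 8.72% in water 3 and 7.18% in uninjected 3, where uninjected 1 had 7.15%. The share of unmapped read pairs was lowest in its group in dsGFP 1 (5.56%) and uninjected 3 (2.63%) but highest in water 3 (5.85%). Of these libraries only water 3 had the lowest gene total of its group. The part of these measures in the levels of Scr and pros was not tested. As pools are bulk samples of whole animals, fewer cells that express a gene and less RNA per cell cannot be told apart.

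The genes with a pattern most like Scr and pros were sought among 598 tested genes with a name other than a locus number, by the root-mean-square difference of log2 CPM after each gene was centred over the 9 libraries. For Scr the closest were Glct-1 (0.067), Tudor-sn (0.085), Arp1 (0.085), Atp5a1 (0.093) and Ptc (0.097). For pros they were Arp1 (0.055), Tudor-sn (0.066), Glct-1 (0.073), HSC70 (0.086) and Csnk1e (0.088). All 7 of these genes had dsGFP 1, water 3 and uninjected 3 as their lowest pools, and 3 of them, Arp1, Tudor-sn and Glct-1, were on both lists. Scr and pros differed from each other by 0.11, which put pros 14th among the named genes closest to Scr and Scr 12th among those closest to pros. Among all tested genes pros was in place 449 for Scr and Scr in place 638 for pros, and even Glct-1 for Scr and Arp1 for pros were each in place 20. The median over all tested genes was 0.29 for either gene. These genes were picked for likeness to Scr and pros, so their shared lowest pools follow largely from that choice. They also share libraries and depth with Scr and pros, so the likeness is a description of 9 libraries.

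Among the named genes closest in pattern is Tudor-sn, whose product is a nuclease that associates with the RNA silencing machinery. It had 215, 274 and 268 CPM in dsGFP pools, 269, 264 and 204 CPM in water pools and 259, 276 and 196 CPM in uninjected pools. HSC70 is a constitutive chaperone and Atp5a1 a subunit of the mitochondrial ATP synthase. Ptc, which by its symbol is the Hedgehog receptor patched and so a developmental regulator itself, had 111, 129 and 140 CPM in dsGFP pools, 145, 149 and 119 CPM in water pools and 142, 126 and 111 CPM in uninjected pools.

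**Figure D4:**
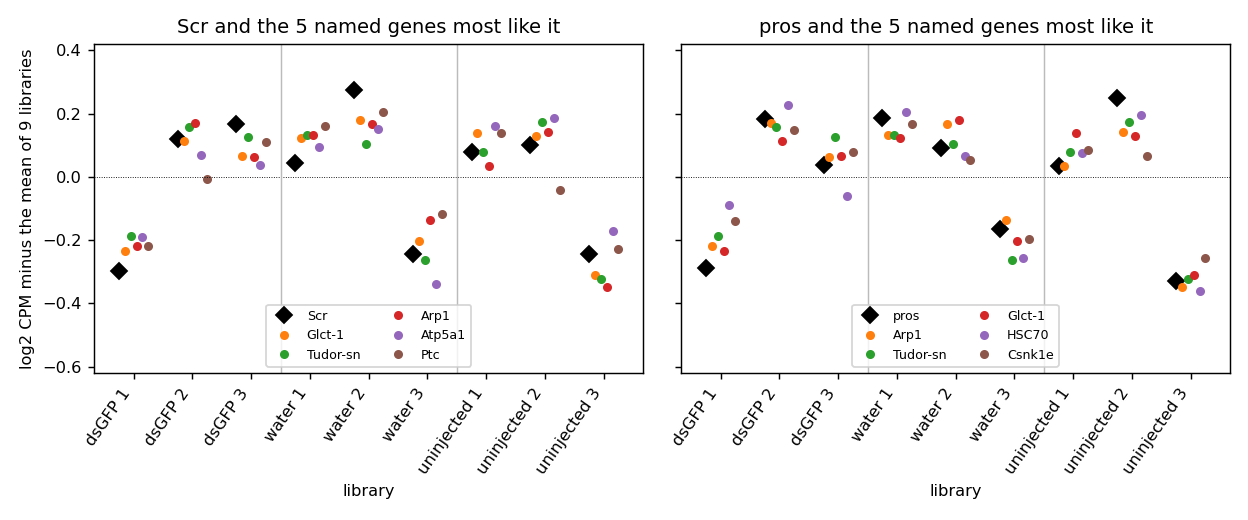
Log2 CPM minus the mean of 9 libraries for Scr (left, black diamonds) and pros (right, black diamonds) and for the 5 named genes most like each (coloured points), by library in the dsGFP, water and uninjected groups. All points of dsGFP 1, water 3 and uninjected 3 lie below 0, and most points of the other 6 libraries lie above it. The coloured genes were picked for likeness, so this arrangement follows largely from the choice.

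By gene order in the RefSeq annotation (assembly Nvit_psr_1.1), Scr and pros lie on the same chromosome with 42 protein-coding genes between them. The nearest coding neighbours of Scr were quiet or low: LOC116417242, on one side, had 8 to 15 counts per library, and LOC100110062, on the other, had 0 to 4 counts and did not pass the filter on low counts. The next genes out, LOC100120050 and LOC100118060, averaged 9.02 and 36.9 CPM in dsGFP pools, 9.35 and 38.1 CPM in water pools and 9.58 and 37.5 CPM in uninjected pools. Both had the same lowest pools as Scr. None of the tested neighbours of Scr was called in any comparison.

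A named gene lies beside pros. It is Dsx (doublesex), the transcription factor at the end of the insect sex determination cascade. Dsx had 172, 202 and 210 CPM in dsGFP pools, 238, 220 and 180 CPM in water pools and 211, 195 and 149 CPM in uninjected pools. Its lowest pools were those of pros, and its groups overlapped (log2 fold change 0.072 for dsGFP against uninjected, SE 0.15, edgeR adjusted p = 0.829). LOC100118619, beyond Dsx, also had its lowest pools there. On the other side, LOC100118843 and LOC100328538 did not, and their mean levels were 1.25 and 11.9 CPM in dsGFP pools, 0.650 and 6.24 CPM in water pools and 0.640 and 9.42 CPM in uninjected pools. None of these neighbours was called in any comparison.

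The files count pros without regard to strand, and its annotated span overlaps that of LOC100678558, a gene at 1.48 CPM with dsGFP, 1.67 CPM with water and 2.21 CPM uninjected. The counts of pros by strand summed to 1.68 to 4.16% more than its unstranded count in the 9 libraries, which is the share that unstranded counting left out as overlapping. For Scr this excess was 0 counts in 8 libraries and 1 in uninjected 1. RefSeq lists 8 transcripts for pros and 1 for Scr, and gene counts do not tell transcripts apart.

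Other developmental genes were matched by symbol or synonym from lists written for patterning, neural fate, appendages and hormone response, and 16 besides Scr and pros were found, all of them tested. From the appendage list only Dsx, Fru and Tra were matched, which are genes of sex determination. The list entry for nanos matched both a row named nanos and a row named Nos, and the symbol alone does not tell whether Nos belongs among patterning genes. Scr was the only gene matched from the Hox list; other Hox genes may be among the rows named only by a locus number. Of the 16 genes, 0 were called in dsGFP against water, where 0.0% of tested genes were called, with 6 higher and 10 lower. In water against uninjected 0 were called, with 10 higher and 6 lower. In dsGFP against uninjected 1 fell, where 4.11% of tested genes were called lower, and 0 rose, where 0.437% were called higher; by value 7 were higher and 9 lower. The median log2 fold changes of the 16 genes were -0.048, 0.064 and -0.037 in these comparisons, against 0.0076, 0.0023 and 0.0073 over all tested genes. The same lowest pools as in Scr and pros were found in 6 of the 16, namely Kr, Eyg, Poxn, Dsx, Fru and Ecr. Over all tested genes the share with these lowest pools was 20.5%, and the difference was not tested.

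The gene that fell was CYP314A1, the P450 enzyme that makes the active moulting hormone 20-hydroxyecdysone. It had 28.5, 24.5 and 32.1 CPM in dsGFP pools, 30.9, 44.2 and 37.3 CPM in water pools and 46.5, 112 and 73.8 CPM in uninjected pools. The dsGFP pools and the water pools each lay below all uninjected pools, and the uninjected pools differed widely among themselves. The log2 fold change for dsGFP against uninjected was -1.45 (SE 0.30, edgeR adjusted p = 0.0332). For water against uninjected it was -1.04 (SE 0.29, edgeR adjusted p = 0.555), without a call. For dsGFP against water it was -0.40 (SE 0.29), where the pools overlapped. The call in dsGFP against uninjected did not hold in 9 of 20 alternatives, including those without dsGFP 1, dsGFP 2, dsGFP 3, water 3 or uninjected 3 (adjusted p over the settings 1.17e-05 to 0.322). Ecr, the gene of the receptor for this hormone, averaged 360 ± 67.9 CPM with dsGFP, 311 ± 39.2 CPM with water and 252 ± 81.9 CPM uninjected (SD, n = 3 each), with overlapping groups and no call (edgeR adjusted p = 0.286 for dsGFP against uninjected).

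Among the genes matched from the segmentation list Eyg was the most abundant, at 22.8 CPM in dsGFP pools, 22.4 CPM in water pools and 18.9 CPM in uninjected pools. Nos, whose place on the list is in doubt, averaged 7.35 CPM in dsGFP pools, 10.0 CPM in water pools and 12.5 CPM in uninjected pools. Its dsGFP pools and its water pools each lay below all uninjected pools, without a call (edgeR adjusted p = 0.130 for dsGFP against uninjected and 0.999 for water against uninjected). The gap genes Hb, Kr and Gt averaged 1.46, 3.47 and 4.70 CPM in dsGFP pools, 1.40, 4.05 and 4.94 CPM in water pools and 1.37, 3.78 and 5.33 CPM in uninjected pools. The homeobox genes Eve and Cad averaged 0.750 and 3.21 CPM in dsGFP pools, 0.812 and 3.04 CPM in water pools and 0.834 and 2.55 CPM in uninjected pools. Poxn, which specifies chemosensory bristles in Drosophila and was the only other gene matched from the neural fate list, had 3.74, 5.34 and 3.81 CPM in dsGFP pools, 5.22, 4.64 and 4.10 CPM in water pools and 3.97, 5.53 and 3.67 CPM in uninjected pools. None of Hb, Kr, Gt, Eve, Cad and Poxn was called in any comparison (edgeR adjusted p of 0.512 or more for dsGFP against uninjected), nor was Eyg (edgeR adjusted p = 0.377).

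Of the markers of mature nervous tissue 1 passed the test, in dsGFP against uninjected. Of 21 genes, nearly all for neuronal channels, receptors and synaptic proteins (Syx17 encodes a syntaxin of autophagy), 20 were tested, and none was at 0 in all libraries. Their summed level was 271 to 335 CPM with dsGFP, 332 to 373 CPM with water and 344 to 445 CPM uninjected. In dsGFP against uninjected 17 of 20 had lower values (median log2 fold change -0.37) and 1 (5.0%) was called lower, where 4.11% of tested genes were called lower. It was the ligand-gated channel subunit gene GRD at 13.5 ± 1.62 CPM with dsGFP and 23.2 ± 4.64 CPM uninjected (SD, n = 3 each; edgeR adjusted p = 0.0177). With water GRD had 16.4 ± 1.07 CPM (SD, n = 3). Its log2 fold change was -0.50 (SE 0.15) for water against uninjected and -0.28 (SE 0.16) for dsGFP against water, without a call in either. The GRD call in dsGFP against uninjected did not hold in 6 of 20 alternatives, including those without dsGFP 1, dsGFP 2 or uninjected 2. In dsGFP against water and in water against uninjected 17 of 20 were also lower by value, with 0 called in either. Uninjected 2 had the sum of 445 CPM, and the other uninjected pools had 344 and 349 CPM. Without uninjected 2, a count made after seeing the data, 10 of 20 were lower in water against uninjected (median log2 fold change -0.0089), and in dsGFP against uninjected 17 of 20 were lower (median -0.23) with 0 called. The lowest pools of Scr and pros were the lowest pools of 5 of the 20 (25.0%), close to the 20.5% of all tested genes. Whether pros differs from these markers in its response was not tested, since pros was chosen with its values known.

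Of 3 muscle genes, Zasp66, which encodes a Z-disc protein, fell to 7.24 ± 1.39 CPM with dsGFP, against 19.3 ± 6.63 CPM uninjected (SD, n = 3 each, log2 fold change -1.41, edgeR adjusted p = 0.0111). It was the only muscle gene called in that comparison, where 4.11% of tested genes were called lower. With 3 genes on the list, no share can be set against that value. With water Zasp66 had 8.86 ± 1.15 CPM (SD, n = 3). Its log2 fold change for water against uninjected was -1.12 (SE 0.24), without a call (edgeR adjusted p = 0.475). For dsGFP against water it was -0.29 (SE 0.24), also without a call. The Zasp66 call in dsGFP against uninjected did not hold in 3 of 20 alternatives, including the one without dsGFP 2. The tropomyosin genes Tm1 and Tm2 were not called in any comparison. Tm1 averaged 846 CPM with dsGFP, 808 CPM with water and 754 CPM uninjected, and Tm2 averaged 22.8, 36.8 and 50.1 CPM. For dsGFP against uninjected the log2 fold change was 0.17 (SE 0.13) for Tm1 and -1.13 (SE 0.33) for Tm2. The summed muscle level came mostly from Tm1 and hides the lower values of the other genes. It was 853 to 918 CPM with dsGFP, 779 to 931 CPM with water and 772 to 883 CPM uninjected. Of the 3 genes, 0 had the lowest pools of Scr and pros.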

How the data were processed

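Per the labels' protocols, libraries were made from poly(A) RNA with no strand-marking step and sequenced as 150 bp pairs. The authors deposited 1 table of raw counts of read pairs per gene for each library, made with STAR 2.6.1b per the submitters' processing notes. No coordinates are printed, because of a genome build not given in the sources used here. The deposited counts without regard to strand were used. Of 15430 rows, 12 that carry a fragment of a description were left out (0.0518 to 0.0608% of counts). Of the remaining 15418, 14940 were matched by symbol to RefSeq genes of assembly Nvit_psr_1.1. Multimapped read pairs were not counted, so near-identical genes may be undercounted.

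Genes were filtered with edgeR's filterByExpr (minimum count 10, minimum total 15), scaled by TMM and fitted over all 9 libraries with edgeR 4.0.16 (glmQLFit, robust, and glmQLFTest) in R 4.3.3, with Benjamini-Hochberg adjustment over 11665 genes and calls at an adjusted p under 0.05. The fit was tested on simulated data. For dsGFP against water (11580 genes) the share called was 7.54% for 1.5-fold changes, 62.4% for 2-fold changes and 93.1% for 4-fold changes. In the simulation genes varied independently of each other. In the real libraries many genes share their lowest pools, so these shares may not hold there. DESeq2 1.42.0 and limma-voom 3.58.1 were alternatives, as were other scalings, no filter, each strand column, 2 groups alone, the replicate number as a block and leaving libraries out. Confidence intervals are 95% and cover counting error only where they are Poisson.

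Scr, pros and the gene lists were chosen with earlier results of these data known. Named are Scr and pros, matched list members (up to 6 a list besides the Hox list, called ones first, then by mean CPM), 2 coding neighbours on each side, a gene whose span overlaps pros and the 5 named genes closest in pattern. The text leaves out some genes this rule would name, Eve is named in addition to it, and Ptc's and Tudor-sn's values were chosen for printing after they were seen.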

Additional observations from a re-analysis of the deposited data

How the results depend on the processing

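The fold changes of Scr and pros moved by less than the SD between pools in all 20 other settings and neither gene was called in any. Leaving out 1 library gave -0.16 to 0.11, -0.093 to 0.17 and -0.093 to 0.15 for Scr and -0.16 to 0.070, -0.12 to 0.17 and -0.17 to 0.12 for pros, in dsGFP against water, water against uninjected and dsGFP against uninjected, so the signs are not fixed. The pooled log2 SD between pools was 0.19 to 0.25 for Scr and 0.17 to 0.25 for pros without scaling factors, with each strand column and with relative log expression size factors (added after seeing the data).

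Counts over all genes depended on the setting. In dsGFP against water DESeq2 called 6 genes, where edgeR called 0. In water against uninjected, with 1 called, DESeq2 called 45, the second strand column 0, and leaving out 1 library 1 to 7 (7 without uninjected 1). In dsGFP against uninjected, with 531 called, DESeq2 called 932, the fit of the 2 groups alone 255, and leaving out 1 library 134 to 681, with 244 without dsGFP 1, 134 without dsGFP 2 and 295 without uninjected 2. With dsGFP 1, water 3 and uninjected 3 left out together the counts were 0 and 0 in the comparisons with uninjected, and with uninjected 2 and 3 left out they were 9 for water and 5 for dsGFP. Fewer libraries enter those fits.

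Of the developmental genes, DESeq2 called 1 in water against uninjected (CYP314A1), where edgeR called 0, and 2 in dsGFP against uninjected (CYP314A1 and Nos), where edgeR called 1. The count for dsGFP against uninjected was 0 with the 2 groups alone, with the first strand column, and with either set of libraries left out together, and 0 to 2 without 1 library. The 0 stood without dsGFP 1, dsGFP 2, water 3 or uninjected 3, and without dsGFP 3 the called gene was Burs. The cause was not tested.

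Samples with the same replicate number did not deviate together (correlations -0.29 to 0.42), and not every sample correlated best with its own number, so the numbers are not taken as pairs. With the number as a replicate block 0, 1 and 539 genes were called, Scr had -0.018, 0.047 and 0.028 and pros -0.052, 0.053 and 5.2e-04, and 2 developmental genes were called in dsGFP against uninjected (CYP314A1 and Eth).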

Other observations

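The strand columns split each library's read pairs by orientation, which carries no strand here, so each column is close to a random part of the same library. For Scr the share in the first of these columns was 48.8 to 51.4% in 8 libraries and 53.9% in dsGFP 3 (1577 of 2927 counts, 95% Clopper-Pearson interval 52.1 to 55.7%), where the whole library had 50.1%. For pros it was 49.6 to 51.4% in all 9 libraries. Over 3437 genes with at least 1000 counts in every library and a strand sum within 1% of the unstranded count, the 95% interval missed the library's share for 11.6 to 14.3% of genes. Counting intervals in these libraries are thus somewhat too narrow. In each strand column alone, dsGFP 1, water 3 and uninjected 3 were again the lowest pools of Scr and pros, below the other 6 libraries. This comparison was chosen after seeing the data, and each column is a part of the same counts. The lowest pools were thus largely given in advance and are no separate evidence.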
